A study of Homo sapiens with 4 samples.

Results

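Retinoic acid is made, moved, destroyed and read by a small set of proteins, and 9 of their genes were followed here in differentiating human cells, RDH10, ALDH1A2, DHRS3, CYP26A1, CRABP1, CRABP2, RARA, RARB and RARG. They were taken from the table by their gene symbols alone, and each of the 9 had 1 row among the 58365 rows of the table. The cells were H1, an established human embryonic stem cell line, collected at day 2 of hematopoietic differentiation in a custom mTeSR1 medium with activin A and BMP4, which drive pluripotent cells toward mesoderm. One group of 2 libraries received IWP2, a small molecule that blocks Porcupine and so the secretion of Wnt ligands, and the other group of 2 libraries is named DMSO, the vehicle. All cells carried the same genome and the same cytokines, there was no library of undifferentiated cells, and the comparison asked what blocking Wnt secretion did to RNA levels.

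Retinol enters cells or is bound inside them by retinol-binding proteins, and RDH10 oxidises it to retinaldehyde, a step that DHRS3 runs backwards. The ALDH1A enzymes then oxidise retinaldehyde to retinoic acid, CRABP1 and CRABP2 bind the acid in the cytosol, and the CYP26 enzymes of the cytochrome P450 family hydroxylate and clear it. In the nucleus it binds the receptors RARA, RARB and RARG, which pair with RXR proteins on DNA at paired half-sites called retinoic acid response elements. In vertebrate embryos ALDH1A2 supplies the acid to the trunk mesoderm, whereas CYP26A1 removes it from the primitive streak and the tail end, and CYP26A1, DHRS3, RARB and CRABP2 are also known as genes that retinoic acid itself induces.

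Values are FPKM, fragments per kilobase of gene scaled to the mapped fragments of the library, so levels of different genes can be set side by side. Differences are given on the log2(FPKM + 1) scale as IWP2 minus DMSO, tested with limma, and a gene is said to have risen or fallen when its adjusted p was under 0.05. This scale understates the change of genes with low values. The labels do not say that the 2 libraries of a group came from separate cultures, so the p-values measure only the spread between these libraries. A lower value in such bulk RNA cannot tell fewer expressing cells from less RNA per cell.

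The best known response element, the direct repeat DR5, was searched in the windows of 300 bases that RefSeq gives around each start site (GRCh38.p14), most of each window lying upstream, and occurred among the members in CYP26A1 and RARB, so both elements are shown. The search took the half-sites GGTCA or GTTCA in the same orientation, with 6 bases between these 5-letter cores, on both strands. Capitals mark the complete half-sites and lower case the 5-base spacer and 6 flanking bases on each side, 5′ to 3′.
CYP26A1: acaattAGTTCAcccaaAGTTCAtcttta
RARB: gggtagGGTTCAccgaaAGTTCActcgca
The CYP26A1 stretch is chr10:93073797-93073825, read from the strand opposite to the gene. Its element ended 74 bases before the start site at position 93073893 and lay inside an exon that GENCODE v29 annotates for 1 CYP26A1 transcript. The RARB stretch is chr3:25428204-25428232, read on the gene's own strand, and its element ended 37 bases before the start site at position 25428263, in no annotated RARB exon.

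Such a DR5 was present in 61 of 35116 windows, or 0.174%, and in 2 of the 17 windows that matched 8 members by symbol. For RDH10 no window was used. The same half-sites with a spacer of 1 base (DR1) occurred in 0.245% of all windows and with a spacer of 2 bases (DR2) in 0.16%, and in no window of a member. The letters CTTTGAT, a core bound by TCF/LEF proteins, occurred in 2.62% of windows on either strand and also in no window of a member. A match is a description of letters in these windows and no match says nothing about the factor. The data set both members far apart, since CYP26A1 was among the most abundant members in DMSO cells while RARB stayed near the floor in every library. Of the 18 tested genes with a DR5 window, CYP26A1 included, 1 rose, 3 fell and 14 were not called, where 15.2% of all 14022 genes tested were called, 6.75% as risen and 8.44% as fallen, and 4 of 18 is read against that share as no result.

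CYP26A1 (ENSG00000095596.11, chromosome 10, 93073475 to 93077890), the enzyme that clears retinoic acid, showed the largest change of the 9 genes. It read 141 and 150 FPKM in the DMSO libraries and 8.86 and 9.98 FPKM in the IWP2 libraries. Both IWP2 values lay far under both DMSO values, and the mean was 15.4-fold lower after IWP2. On the log2 scale CYP26A1 fell by 3.81 (SE 0.0972, 95% interval -4.06 to -3.57, limma adjusted p = 0.000186), the 37th largest fall among the 1183 genes that fell. In order of mean FPKM it went from rank 567 of 14022 tested genes in DMSO cells to rank 7195 in IWP2 cells. The call held in every alternative fit, including each fit without 1 library, with log2 values between -3.94 and -3.74 and adjusted p between 6.31e-05 and 0.0221.

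**Figure D1:**
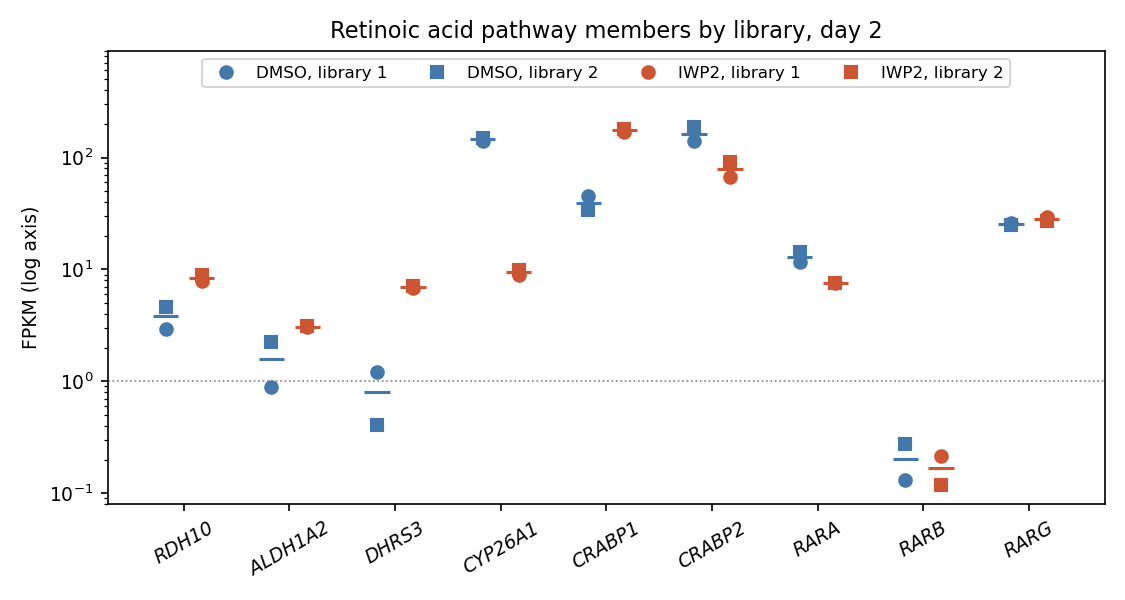
FPKM of each member on a log axis, 1 point per library (blue DMSO, red IWP2, circles library 1, squares library 2), with short lines at the group means and a dotted line at 1 FPKM. CYP26A1 is the member with the widest gap, near 145 FPKM in DMSO and 9.42 FPKM in IWP2 on average, CRABP1 and CRABP2 exchange places, and RARB lies under the dotted line in all 4 libraries.

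The other CYP26 genes were low in all 4 libraries. CYP26B1 read 0.659 and 1.31 FPKM in DMSO and 0.37 and 0.682 FPKM in IWP2, and CYP26C1 read 0.182 and 0.102 FPKM in DMSO and 0.404 and 0.209 FPKM in IWP2, so neither reached the mean of 1 FPKM needed for the test. CYP26A1 made up 99.2% ± 0.24 (SD, n = 2) of the summed FPKM of the 3 CYP26 genes in DMSO cells and 91.9% ± 0.12 (SD, n = 2) in IWP2 cells. The summed CYP26 level was 146 ± 6.38 FPKM (SD, n = 2) in DMSO and 10.2 ± 0.878 FPKM (SD, n = 2) in IWP2. The remaining level in treated cells was therefore still almost wholly CYP26A1.

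Of the enzymes that make the acid or convert its precursor, RDH10 and DHRS3 rose and ALDH1A2 was not called. RDH10, which makes retinaldehyde from retinol, read 2.96 and 4.64 FPKM in DMSO cells and 7.96 and 8.89 FPKM in IWP2 cells. Its groups did not overlap, the mean was 2.22-fold higher after IWP2, and the log2 difference was 0.99 (SE 0.201, limma adjusted p = 0.0315). DHRS3 (ENSG00000162496.8, chromosome 1, 12567910 to 12617731), which returns retinaldehyde to retinol, read 1.21 and 0.403 FPKM in DMSO and 6.86 and 7.16 FPKM in IWP2. DHRS3 was thus near or under 1 FPKM without the inhibitor and about 7 FPKM with it, 8.69-fold higher on average, with a log2 difference of 2.18 (SE 0.248, limma adjusted p = 0.00625). It passed the filter on low values through its IWP2 libraries alone. RDH10 and DHRS3 act in opposite directions on the same pair of substrates, and both transcripts were higher in the same libraries.

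The calls of RDH10 and DHRS3 depended on single libraries. The limma adjusted p of RDH10 was 0.0704 without DMSO library 1, 0.177 without IWP2 library 1 and 0.22 without IWP2 library 2, and that of DHRS3 was 0.0863 and 0.0927 without IWP2 library 1 or 2, while the direction was the same in each fit.

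ALDH1A2 (chromosome 15, 57953424 to 58497866), the main retinoic acid synthase of the early embryo, read 0.881 and 2.26 FPKM in DMSO and 3.07 and 3.1 FPKM in IWP2. The IWP2 values were close together and above both DMSO values, but the DMSO values differed between themselves by more than the gap to the IWP2 values. The log2 difference of 0.72 (95% interval -0.0136 to 1.45) was not called (limma adjusted p = 0.171), although it was called without DMSO library 2 (0.0441). Its relative ALDH1A3, which oxidises retinaldehyde as well, fell, from 9.01 and 4.03 FPKM in DMSO to 0.959 and 1.82 FPKM in IWP2 (log2 difference -1.59, SE 0.374, limma adjusted p = 0.0481). ALDH1A1 read 0.0236 and 0.0265 FPKM in DMSO and 0.219 and 0.359 FPKM in IWP2 and was not tested.

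Within the ALDH1A group the 2 main genes exchanged places. ALDH1A2 made up 8.89% and 35.8% of the summed ALDH1A FPKM in the DMSO libraries and 72.3% and 58.7% in the IWP2 libraries. ALDH1A3 made up 90.9% and 63.7% in DMSO and 22.6% and 34.5% in IWP2. The summed level was low throughout, 8.12 ± 2.54 FPKM (SD, n = 2) in DMSO and 4.76 ± 0.727 FPKM (SD, n = 2) in IWP2. The call of ALDH1A3 held in 1 of the 4 fits without 1 library, with adjusted p from 0.0402 to 0.259.

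**Figure D2:**
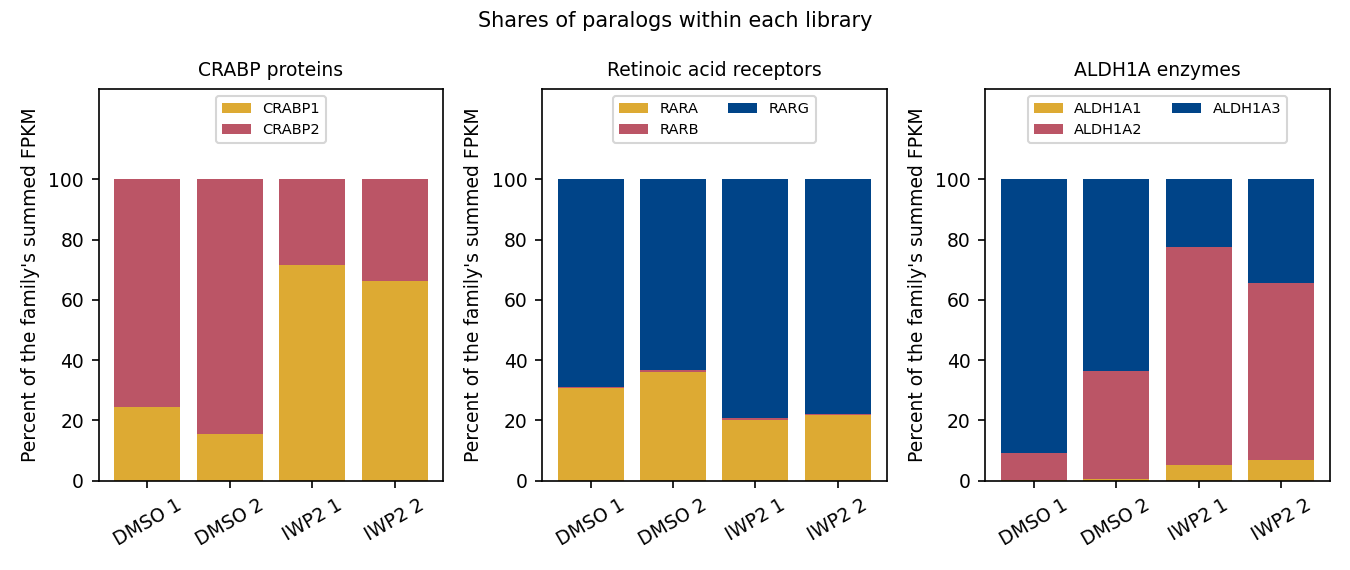
Percent of each family's summed FPKM contributed by its genes, 1 bar per library, for the CRABP, RAR and ALDH1A families. CRABP1 goes from 24.3% and 15.4% of the CRABP level in DMSO to 71.7% and 66.2% in IWP2, RARG holds over 60% of the receptor level in every library, and ALDH1A2 is above ALDH1A3 in the IWP2 libraries only.

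The genes of the cytosolic binding proteins moved in opposite directions, CRABP1 up and CRABP2 down. CRABP1 (chromosome 15, 78340324 to 78348230), which holds retinoic acid in the cytosol and is linked to its breakdown, read 45.1 and 33.8 FPKM in DMSO and 170 and 180 FPKM in IWP2. It was 4.43-fold higher after IWP2 (log2 difference 2.13, SE 0.148, limma adjusted p = 0.00165) and was the 38th largest rise among the 946 genes that rose. CRABP2 (chromosome 1, 156699606 to 156705816), which hands retinoic acid to the receptors in the nucleus, read 140 and 186 FPKM in DMSO and 67.1 and 91.6 FPKM in IWP2. It was 2.06-fold lower (log2 difference -1.03, SE 0.2, limma adjusted p = 0.028). The CRABP1 values of the treated libraries stood above every DMSO value and its CRABP2 values below every DMSO value.

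The ratio of CRABP1 to CRABP2 was 0.322 and 0.182 in the DMSO libraries and 2.53 and 1.96 in the IWP2 libraries. CRABP2 was thus the more abundant of the pair in DMSO cells and CRABP1 the more abundant in IWP2 cells. The sum of both, 203 ± 24.5 FPKM (SD, n = 2) in DMSO and 254 ± 24.2 FPKM (SD, n = 2) in IWP2, differed less between the groups in proportion than either gene. CRABP1 was called in all fits without 1 library except that without IWP2 library 2 (adjusted p = 0.0518). CRABP2 kept its direction but was called in none of those 4 fits, with limma adjusted p of 0.0561 and 0.119 without DMSO library 1 or 2 and 0.164 and 0.0926 without IWP2 library 1 or 2.

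**Figure D3:**
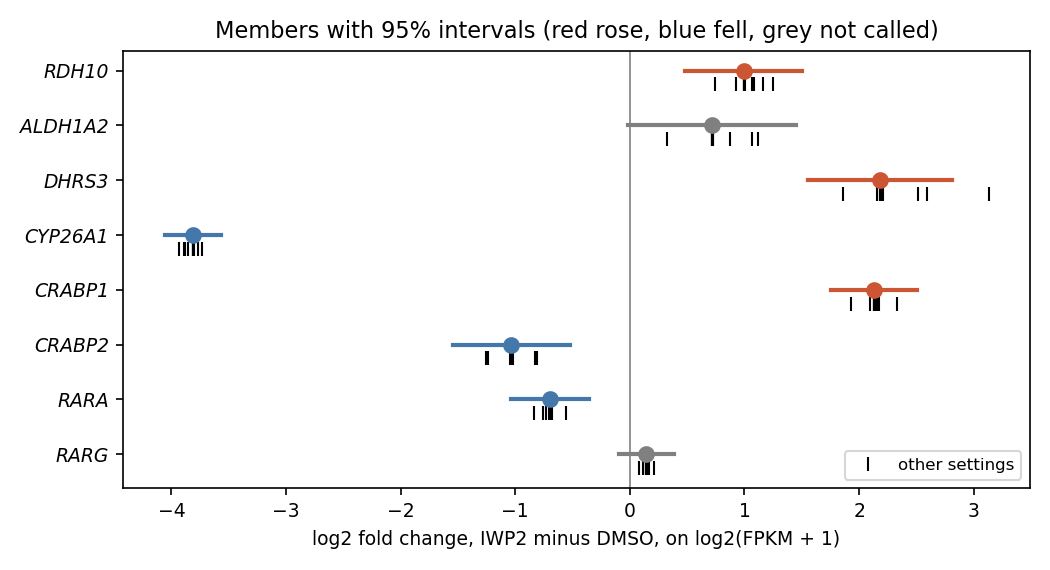
Log2 fold change of the 8 tested members (points) with 95% intervals (lines), red for risen, blue for fallen and grey for not called, and the values under the other processing settings as ticks beneath. CYP26A1 at -3.81 stands apart from the other fallen members, CRABP2 at -1.03 and RARA at -0.7, while no tick crosses 0.

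Of the nuclear receptors, RARA fell, RARG was not called, and RARB was too low to test. RARG (chromosome 12, 53210567 to 53232980) was the most abundant, with 26.0 and 25.1 FPKM in DMSO and 29.7 and 27 FPKM in IWP2. These values lay close together, and the log2 difference was 0.14 (95% interval -0.098 to 0.383, limma adjusted p = 0.377). RARA (chromosome 17, 40309192 to 40357643) read 11.6 and 14.3 FPKM in DMSO and 7.52 and 7.61 FPKM in IWP2, 1.71-fold lower (log2 difference -0.7, SE 0.134, limma adjusted p = 0.0277). Its IWP2 values were nearly equal and both under the DMSO values. RARB, the receptor gene whose promoter carries the element shown above, read 0.132 and 0.273 FPKM in DMSO and 0.215 and 0.118 FPKM in IWP2, with overlapping groups.

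The summed receptor level was 38.7 ± 1.37 FPKM (SD, n = 2) in DMSO and 36.1 ± 1.89 FPKM (SD, n = 2) in IWP2. RARG made up 69% and 63.2% of it in the DMSO libraries and 79.3% and 77.8% in the IWP2 libraries, and RARB under 1% in each. The call of RARA was lost without DMSO library 2 (limma adjusted p = 0.0972), without IWP2 library 1 (0.185) and without IWP2 library 2 (0.186). RARA shares 556 exon bases with RARA-AS1 on the opposite strand, which read 1.62 and 1.73 FPKM in DMSO and 0.704 and 0.878 FPKM in IWP2. The kit named in the labels is not said to keep the strand, so reads over that stretch cannot be told apart.

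None of the RXR genes, whose proteins pair with these receptors, was called. RXRA read 17.7 and 16.4 FPKM in DMSO and 15 and 13.2 FPKM in IWP2 (log2 difference -0.26, limma adjusted p = 0.19), and RXRB read 4.17 and 4.59 FPKM in DMSO and 4.9 and 4.24 FPKM in IWP2 (log2 difference 0.05, limma adjusted p = 0.854). RXRG read 0.432 and 0.413 FPKM in DMSO and was listed at 0 in both IWP2 libraries, too low for the test. RXRA therefore stayed the main RXR transcript, with 78% ± 1.92 (SD, n = 2) of the summed RXR level in DMSO and 75.5% ± 0.204 (SD, n = 2) in IWP2.

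Counted together, 8 of the 9 members were tested, of which 3 rose and 3 fell. Over all 14022 genes tested, 15.2% were called, 6.75% rose and 8.44% fell. The 2 libraries of each group did not overlap for any of the 8 tested members, but this was also so for 59.8% of all genes tested. Without IWP2 library 1 the members called were 2 and without IWP2 library 2 only CYP26A1 was called, while the calls over all genes fell from 2129 to 294 and 238 in those fits. The median log2 difference was 0.43 for the tested members and -0.02 for all tested genes.

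The order of the members by FPKM also differed between the groups. In DMSO cells CRABP2 and CYP26A1 led, with overlapping ranges, followed by CRABP1, RARG, RARA, RDH10, ALDH1A2, DHRS3 and RARB. In IWP2 cells CRABP1 led, followed by CRABP2, RARG, CYP26A1, RDH10, RARA, DHRS3, ALDH1A2 and RARB. The ranges of ALDH1A2 and DHRS3 overlapped in DMSO cells, those of CYP26A1 and RDH10 overlapped in IWP2 cells, and no other neighbours in either order did.

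Other genes of the pathway were read from a list of 41 symbols, of which 40 matched the table and 24 were tested. None rose, 5 fell and 19 were not called, with a median log2 difference of -0.04, and over all genes tested 15.2% were called and 8.44% fell. The 5 calls among 24 are near the 15.2% called in either direction. All 5 were falls, a larger share than the 8.44% that fell over all genes. So small a count is read as no result about the list. STRA6, the membrane receptor that takes up retinol from its plasma carrier, read 12.9 and 9.6 FPKM in DMSO and 1.23 and 1.79 FPKM in IWP2 (log2 difference -2.28, SE 0.201, limma adjusted p = 0.00327). STRA6 was lower in both IWP2 libraries than in either DMSO library.

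FABP5, a fatty acid-binding protein that can also bind retinoic acid, read 845 and 846 FPKM in DMSO and 238 and 249 FPKM in IWP2 (log2 difference -1.79, SE 0.0776, limma adjusted p = 0.000454). It has processed pseudogenes of near-identical sequence, so its level is uncertain to the extent that reads were divided among them. NRIP1, a receptor corepressor, also fell (log2 difference -0.63, limma adjusted p = 0.0339), and ALDH1A3 is described above. FABP5 was called in all 4 fits without 1 library, STRA6 in 2 and NRIP1 in 0, and the list had 2 to 4 calls in those fits. Among those not called was the retinol dehydrogenase RDH11, with 62.4 and 56.3 FPKM in DMSO and 62.4 and 64 FPKM in IWP2 (limma adjusted p = 0.552).

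A second list held 20 genes known to respond to retinoic acid in some tissue, of which 11 were tested. Of these, 5 fell, 3 rose and 3 were not called, with a median log2 difference of -0.63. Over all genes tested 15.2% were called, 6.75% as risen and 8.44% as fallen. Among the fallen were the homeobox genes HOXB2 and CDX1. HOXB2 read 15.8 and 21.2 FPKM in DMSO and 0.32 and 0.493 FPKM in IWP2 (log2 difference -3.78, limma adjusted p = 0.00061). CDX1, a caudal homeobox gene that also responds to Wnt, read 3.14 and 2.78 FPKM in DMSO and 0.132 and 0.153 FPKM in IWP2 (limma adjusted p = 0.00482). Both were under 0.5 FPKM in treated cells. HOXB1 and HOXB4 were too low to test and low without the inhibitor as well. In DMSO HOXB1 read 0.0495 and 0.251 FPKM and HOXB4 0.498 and 0.85 FPKM.

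LEFTY1, a secreted Nodal antagonist (log2 difference -2.39, limma adjusted p = 0.00481), fell as well. In the other direction, NR2F2, an orphan nuclear receptor gene, rose from 0.343 and 0.413 FPKM in DMSO to 2.64 and 2.34 FPKM in IWP2 (log2 difference 1.34, limma adjusted p = 0.0107). RARRES2, which encodes the secreted protein chemerin, rose from 93.3 and 73.3 FPKM to 144 and 155 FPKM (log2 difference 0.85, limma adjusted p = 0.0157). The list thus held calls in both directions, as the members did. CDX1 and NR2F2 passed the filter through 1 group alone, and without IWP2 library 1 or 2 only HOXB2 of this list was called.

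**Figure D4:**
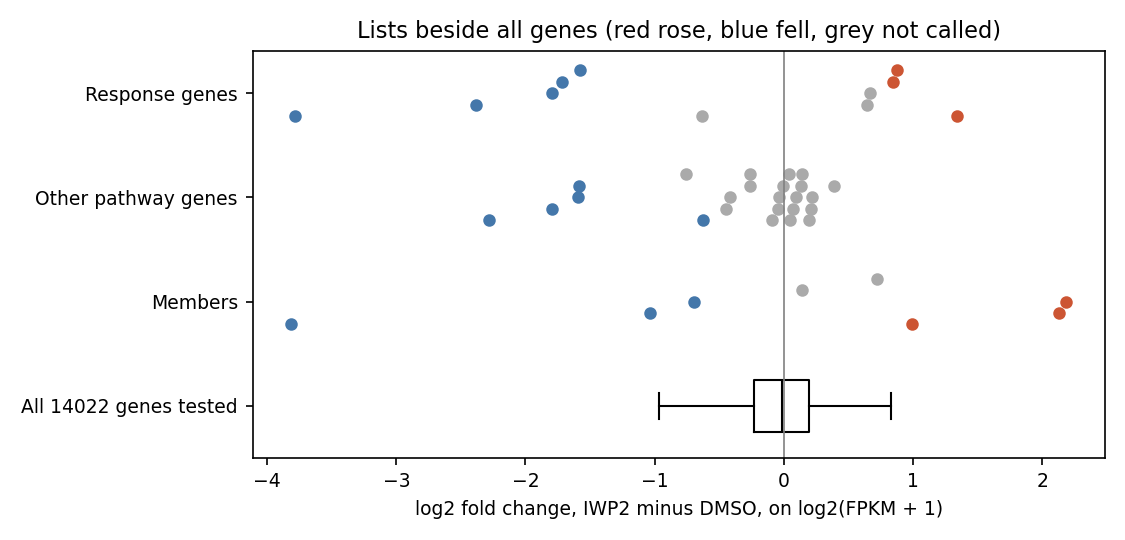
Log2 fold change of tested genes in the members, the other pathway genes and the response genes (points, red rose, blue fell, grey not called), beside a box of all 14022 genes tested (median and quartiles, whiskers at the 5th and 95th percentiles, -0.963 and 0.828). Calls in both directions appear among the members and response genes. The 5 fallen pathway genes are read beside the 15.2% called and the 8.44% fallen over all genes.

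The inhibitor and the state of the cells moved with these values. Of 8 genes fixed as Wnt targets, 6 fell and 2, RNF43 and ZNRF3, were not called. SP5 fell from 53.2 and 47 FPKM to 0.379 and 0.363 FPKM (log2 difference -5.22). The log2 differences were -4.54 for LGR5, -4.12 for NKD1, -3.14 for LEF1, -1.16 for AXIN2 and -1.06 for NOTUM. All 9 markers of primitive streak and mesoderm fell, and their summed level was 1134 and 1451 FPKM in DMSO and 150 and 173 FPKM in IWP2. The log2 differences were -6.91 for APLNR, -3.6 for MIXL1 and -1.32 for HAND1. Of 6 endoderm markers 5 fell, with sums of 1917 and 2307 FPKM in DMSO, mostly CER1 with 1612 and 2048 FPKM, and 126 and 137 FPKM in IWP2. The other, SOX17, was not called, with 155 and 104 FPKM in DMSO and 79.7 and 94.9 FPKM in IWP2 (limma adjusted p = 0.152).

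Of 7 pluripotency markers 4 rose and 1, TDGF1, fell, with sums of 1371 and 1202 FPKM in DMSO and 2477 and 2475 FPKM in IWP2. SOX2 was at 0.193 and 0.174 FPKM in DMSO and at 35.6 and 36.1 FPKM in IWP2, and POU5F1 rose by a log2 difference of 1.5. Of 7 amnion and trophectoderm markers 3 rose, KRT7 by 2.10, TFAP2A by 1.22 and GABRP by 1.16, and 1, HAND1, fell. KRT7 and GABRP, each under 1 FPKM in DMSO, passed the filter on low values through their IWP2 libraries alone, as did SOX2. Of 6 blood and endothelial markers, KDR and RUNX1 fell, CD34 was not called, and PECAM1, CDH5 and TAL1 were each under 0.5 FPKM in every library. Fallen markers of any list under 1 FPKM in IWP2, RUNX1 among them, passed the filter through their DMSO libraries alone. KDR, the VEGF receptor that mesoderm also expresses, read 53.2 and 60.4 FPKM in DMSO and 38.6 and 35.7 FPKM in IWP2, while RUNX1 and CD34 were between 2.04 and 5.43 FPKM in DMSO. At day 2 the DMSO cells thus held some mesodermal and endodermal markers at high levels, but not all. In DMSO, TBX6 read 8.78 and 11.8 FPKM and PDGFRA 8.38 and 10.1 FPKM. Of the endoderm list, FOXA2 read 6.28 and 3.49 FPKM and HHEX 2.08 and 2.3 FPKM in DMSO. Of the blood and endothelial list KDR alone was above 10 FPKM. Of 6 neuroectoderm markers 4, PAX6, SOX1, ZIC1 and HESX1, were too low to test, OTX2 fell and NES rose, the latter called in 0 of the 4 fits without 1 library (limma adjusted p from 0.0544 to 0.194). Without IWP2 library 1 or 2, 1 pluripotency marker, SOX2, was called as risen in place of 4, and the fallen markers were 6 of streak and mesoderm in place of 9, 2 of endoderm in place of 5, 0 of blood and endothelium in place of 2 and 4 Wnt targets in place of 6. The risen amnion and trophectoderm markers were 1 without IWP2 library 1 and 0 without IWP2 library 2, in place of 3, and HAND1 was called in neither fit. TDGF1 was not called without IWP2 library 2. The part of these shifts in cell markers and Wnt targets in the values of the retinoic acid genes was not tested.

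For the called members with the largest changes, CYP26A1 and DHRS3, the tested genes with the most similar profile were found by the Euclidean distance of log2(FPKM + 1) over the 4 libraries. Those nearest to CYP26A1 were SLCO2A1 (distance 0.23), a prostaglandin transporter, EOMES (0.577), a T-box factor of the primitive streak, and COL5A1 (0.832), a fibrillar collagen. EOMES read 138 and 153 FPKM in DMSO and 12.8 and 12.6 FPKM in IWP2. Those nearest to DHRS3 were EPN3 (0.292), an endocytic adaptor, LAMA4 (0.425), a laminin chain, and COBL (0.473), an actin nucleator. These distances describe 4 values per gene that mainly reflect the group means.

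The whole profiles were closer within the groups than between them. Pearson's r of log2(FPKM + 1) over the tested genes was 0.972 between the DMSO libraries, 0.98 between the IWP2 libraries and 0.927 to 0.938 between groups, as a description across genes. The summed FPKM ranged from 616418 to 653850. The 2 most abundant features took 8.41% and 3.83% of it in DMSO libraries 1 and 2. In IWP2 libraries 1 and 2 they took 7.88% and 5.07%, so the share was higher in library 1 of both groups. The deposited values hold no read counts, so the depth of each library is unknown and no counting interval can be given.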

How the data were processed

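The 4 libraries of H1 cells at day 2 were prepared from total RNA with an Illumina TruSeq RNA kit, per the labels. The submitters' processing notes name BWA, Bowtie, RSEM and hg19, without versions or roles. The authors deposited 1 table of FPKM values per gene and library. The labels do not state the unit, which was taken from the description supplied with the series. Its gene coordinates are those of GRCh38, since 55629 of 55723 gene IDs shared with GENCODE v29 had the same chromosome, start and end, and they are given here counted from 1. Columns headed -IWP2 were taken as the DMSO group, with the library numbers of the headers.

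Genes with a mean of at least 1 FPKM over all 4 libraries (14022 of 58365) were fitted with limma 3.58.1 in R 4.3.3 (intensity trend) on log2(FPKM + 1), with Benjamini-Hochberg adjustment over all of them. The study's methods name no model across genes for these data. No read counts were given, so no count model was used. The script was tested on data made with known changes. Named were all members, their closest relatives, Wnt targets, up to 10 called genes of each other list with a log2 difference of at least 1, and up to 3 markers of each list by level. NRIP1, RARRES2, RDH11 and other genes named beyond this rule were chosen after their values were seen. Leaving out a library for the marker lists was added after seeing the data. The members and lists were chosen with earlier results of these data known. Some genes that the lists hold and their counts include are not reported here by name. Promoter windows are from RefSeq.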

Additional observations from a re-analysis of the deposited data

How the results depend on the processing

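Of 87 alternative values for single members, 69 kept their direction and their side of the threshold, 17 kept the direction but were no longer called, 1 became called and 0 reversed. The 69 include values of RARG, ALDH1A2 and RARB, which had no call to lose, so they overstate how stable the calls were. Testing all genes with any value above 0 (28917 genes) left 381 genes called instead of 2129, with 2 members instead of 6, 2 other pathway genes instead of 5 and 3 response genes instead of 8. More and lower genes enter that fit. A minimum mean of 5 FPKM (9617 genes) left 3 pathway and 4 response genes. Requiring a log2 difference of at least 1 left 1000 genes. Without 1 library, in fits where a lone library is assumed to vary like the other group, the calls ranged from 238 to 1375 genes, 1 to 5 members, 2 to 4 pathway genes and 1 to 8 response genes, and the lowest counts came without either IWP2 library. The cause was not tested. Pseudocounts of 0.1 or 0.5, median-ratio scaling and a prior without a trend left each of these counts within 1.5 times. The libraries share only a number (correlation of same-numbered deviations 0.152 over genes, 2 pairs). With that number as a replicate block, 1927 genes and 3 pathway genes were called, and the counts for members and response genes did not change. With 2 libraries a group and no read counts, genes under 1 FPKM such as RARB cannot be resolved.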
